A study of Homo sapiens with 12 samples.

Results

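ERBB4, a receptor tyrosine kinase of the EGFR family, is made with 2 forms of its intracellular domain (ICD), called CYT1 and CYT2, and their effects on transcript levels were set side by side in MCF10A, a non-transformed line of human breast epithelium. The comparison uses 8 of the 12 Illumina bead arrays of the study, the 4 titled CYT2 and the 4 titled CYT1, chosen by their titles alone. In each group the titles number 2 biological replicates (BioRep 1 and 2) with 2 technical arrays each (Techrep 1 and 2), so that 4 of the 6 biological replicates enter the comparison itself. The CYT1 cells expressed the ERBB4 ICD in its CYT1 form and the CYT2 cells the ICD in its CYT2 form, and all were grown in the same serum-containing medium. The remaining 4 arrays came from cells with a control vector (VEC), grown alike, and serve as a reference level and in the estimate of error. The promoter of the constructs, the amount of ICD protein, and whether a line is 1 clone or a pool are not stated in the labels. The labels do not say whether the BioRep numbers are separate lines or separate cultures of 1 line, so p-values measure the spread between these samples, and the ICD form and the history of each line cannot be told apart.

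The JM-a forms of ERBB4 are cut at the membrane after ligand binding, and the released ICD can reach the nucleus, where it acts with transcription factors. In the mouse mammary gland ERBB4 is known for its part, with STAT5A, in the differentiation of milk-producing cells. The CYT1 form carries a short insert with a docking site for phosphoinositide 3-kinase (PI3K), whose lipid product activates the kinase AKT, and with a motif bound by WW-domain proteins. The CYT2 form lacks that insert. AKT is known to keep FoxO transcription factors out of the nucleus and to promote growth through mTOR. The comparison of CYT2 with CYT1 therefore asks which transcripts depend on the form of the domain rather than on its presence.

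Between 17710 and 18721 probes were detected (detection p under 0.05) on each of the 8 arrays, of 47323 on the array. The number of arrays limits the precision. ERBB4 had 1 probe, which was not detected on any of the 12 arrays (detection p 0.439 to 0.964, signals of 102.0 to 127.2), so neither the level of the ICD nor the group labels could be checked with it. Of 8 markers of MCF10A, KRT5, KRT14, ITGA6, CDH3, CDH1 and EPCAM were detected on all 12 arrays, while KRT17 and TP63 were not analysed here. The BioRep numbers did not group the arrays: within a group, the root mean square log2 difference between 2 arrays had a median of 0.32 when they shared the BioRep number and of 0.31 when they shared the Techrep number, over 6 pairs each. CYT1 and CYT2 arrays differed from each other by 0.37, against 0.62 between CYT1 and VEC and 0.56 between CYT2 and VEC (medians of 16 pairs). Averaging by BioRep or by Techrep gives the same log2 differences, and only their error changes.

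Most transcripts lay at similar levels with either ICD form. The median size of the difference between CYT2 and CYT1 was 0.13 on the log2 scale over 17356 probes tested, with 95% of probes under 0.46. A probe is said to be called when its adjusted p was under 0.05 in limma's moderated test with Benjamini-Hochberg adjustment over all probes. By this rule 82 probes (0.472%) were called, 35 higher in CYT2 (0.202%) and 47 lower (0.271%), against 35.9% between CYT1 and VEC and 30.4% between CYT2 and VEC. The smallest called difference was 0.62 in size. An unadjusted p under 0.05 was found for 3029 probes (17.5%), where 867.8 would be expected with no difference anywhere. In all 82 called probes the 4 CYT2 arrays lay apart from the 4 CYT1 arrays. This was largely fixed by the rule, which selected these probes for large differences on the same arrays.

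At the level of genes, each taken by its brightest probe, 57 of 10371 were called (0.55%), 25 of them higher in CYT2 (0.241%) and 32 lower (0.309%). A further 13 called probes belonged to genes with another, brighter probe, and 12 carried no usable gene symbol. The fitted difference was 2-fold or more for 17 genes lower in CYT2 and for 1 gene higher. The 17 include A2ML1, which was not detected on any CYT2 array and is bounded at 1.36-fold or more. The arrays of both groups did not overlap for 701 genes higher in CYT2 (6.76%) and for 663 lower (6.39%), which is the background against which the gene groups below are read. Counts of called genes in a list are read beside the called shares of all genes, 0.241% higher and 0.309% lower.

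The number of calls depended strongly on how the error was estimated. With the CYT1 and CYT2 arrays alone, or without either VEC replicate, 3 probes were called. Leaving out any CYT1 or CYT2 replicate left 0 calls by limma, with 2270 to 2484 probes at an unadjusted p under 0.05. Such a fit has 1 sample in that group, which is assumed to vary like the other groups, and its 0 calls do not show that the differences are absent. Fits that let the error follow the signal level, or that used every array, called 1089 and 1094. The fit on every array estimated a correlation of -0.14 between technical arrays of 1 replicate. It therefore counted them at least as fully as separate samples. The split of calls moved as well, from 35 higher and 47 lower to 545 and 450 with quantile normalisation of uncorrected values, to 434 and 272 with the deposited log2 values, and to 265 and 217 with an offset of 50. All 57 called genes kept their sign in each of 21 alternative settings. This was largely fixed in advance, since their arrays do not overlap and several settings change only the error. The calls for KRT13 (16 settings), RARRES1 (15) and SERPINB13 (12) recurred in the most settings, and the median called gene was called in 8. The fit on CYT1 and CYT2 alone and those without a VEC replicate gave identical results but were counted separately. This raised the counts of KRT13, RARRES1 and SERPINB13, which were called in them. With replicates taken by Techrep number 13 of the 57 called genes stayed called, all of them lower in CYT2. Every gene called higher, the 7 mitosis genes below among them, then had a limma adjusted p above 0.05.

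**Figure D1:**
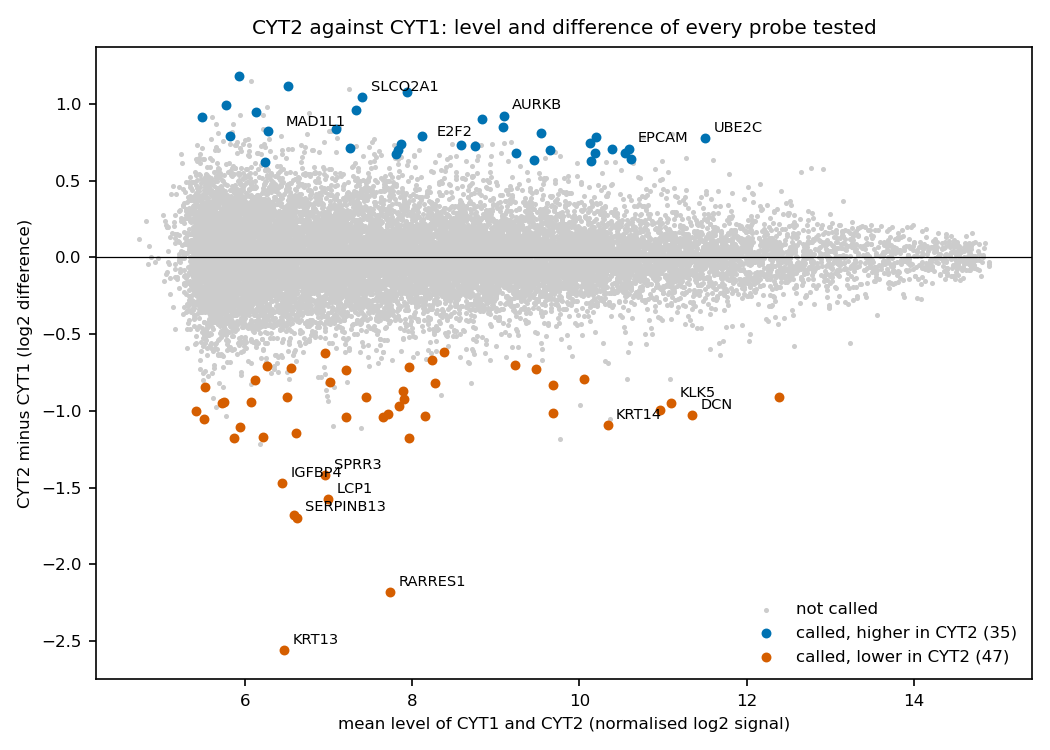
Difference between CYT2 and CYT1 (vertical axis, log2) against the mean level of both groups (horizontal axis, normalised log2 signal) for each of 17356 probes tested, with the 35 probes called higher in CYT2 in blue and the 47 called lower in orange. KRT13 and RARRES1 stand lowest, and no called difference is smaller than 0.62.

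**Figure D2:**
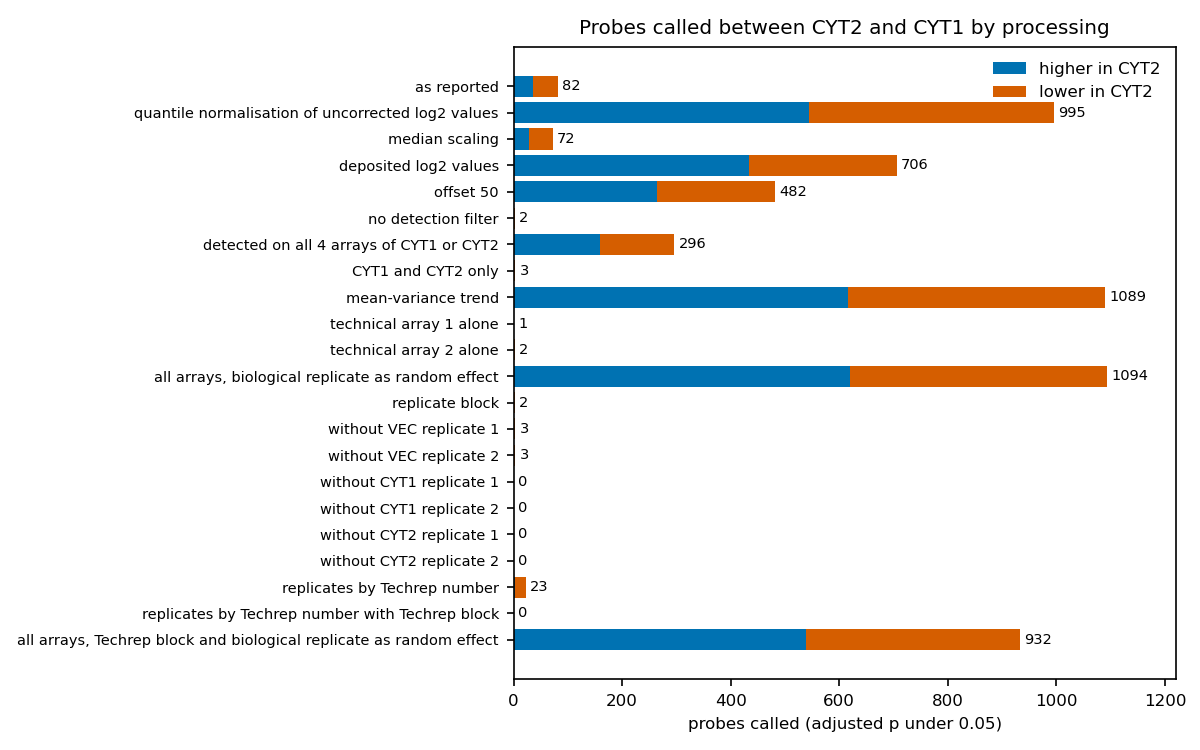
Number of probes called between CYT2 and CYT1 (horizontal axis, adjusted p under 0.05) as reported, at 82, and under each of 21 alternative settings, split into higher and lower in CYT2. The counts run from 0, as when any CYT1 or CYT2 replicate is left out, to 1094 with all arrays in the fit, where technical arrays count as separate samples.

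Genes of the mitotic spindle and of chromosome segregation were higher in CYT2 than in CYT1, with a median difference of 0.52 over 59 genes tested, against -0.005 over all 10371 genes. Of the 59 genes 7 rose (beside 0.241% of all genes) and 0 fell by limma, and in 47 all CYT2 arrays lay above all CYT1 arrays (beside 6.76% of all genes). All 59 differences were above 0, from 0.09 for the checkpoint gene BUB3 to 1.10 for SPC25, a kinetochore subunit that was not called. Both forms stood above VEC for this list, by a median of 1.44 in CYT1 and of 2.01 in CYT2, values that share the VEC arrays. In RNA from whole cultures, more dividing cells and more transcript per dividing cell cannot be told apart.

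Promoters of such genes are known to carry the cell cycle genes homology region (CHR), bound by the MuvB complex with B-MYB and FOXM1, often near a CCAAT box bound by NF-Y, while many genes of DNA replication carry a site for E2F factors. Windows of 250 bases before the annotated start of a gene, from RefSeq on GRCh38.p14, were searched on both strands for TTTGAA (CHR), CCAAT, and the E2F spellings TTTCCCGC, TTTCGCGC, TTTGCCGC and TTTGGCGC. A window was available for 49 of the 59 mitosis genes, 35 of 41 replication genes, 18 of the 25 genes called higher and 21 of the 32 called lower. TTTGAA was found in 27 of the 49 mitosis windows (55.1%) and in 1 of the 35 replication windows (2.86%), beside 13.7% of the windows of all 27305 genes and 8.82% of those of the genes tested. CCAAT was found in 38 of the 49 (77.6%) and in 17 of the 35 (48.6%), beside 32.9% of all windows and 35.3% of those of the genes tested. An E2F spelling was found in 2 of the 49 (4.08%) and 11 of the 35 (31.4%). The share was 2.76% of all windows and 4.44% of those of the genes tested, so the mitosis list lay near it. These shares describe the lists and are no measurement of the cells.

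Among the genes called higher in CYT2, TTTGAA was found in the windows of 4 of 18 (22.2%, beside 8.82% of genes tested), ANLN, CDCA8, CEP55 and CKAP2L. An E2F spelling was found in those of 3 (16.7%, beside 4.44% of genes tested), ADAP1, CDC25A and E2F2. CCAAT was found in 8 of the 18 (44.4%) and in 4 of the 21 windows of genes called lower (19.0%), beside 35.3% of genes tested. Among those called lower TTTGAA was found in 1 window (4.76%), that of ACTG2, and an E2F spelling in 1 (4.76%), that of RARRES1. The windows of the 4 CHR genes and of the cell cycle regulators CDC25A and E2F2 are shown because these 6 called genes hold a CHR or E2F match and act in division or in the cell cycle, each read 5′ to 3′ toward the start of the gene. Capitals mark the motif matches, and in CDCA8 a CHR match overlaps a CCAAT match. They lie at chr1:37692266-37692515 (plus strand) for CDCA8, chr2:112764610-112764859 (minus) for CKAP2L, chr10:93496362-93496611 (plus) for CEP55, chr7:36389612-36389861 (plus) for ANLN, chr3:48188418-48188667 (minus) for CDC25A and chr1:23531234-23531483 (minus) for E2F2.
CDCA8: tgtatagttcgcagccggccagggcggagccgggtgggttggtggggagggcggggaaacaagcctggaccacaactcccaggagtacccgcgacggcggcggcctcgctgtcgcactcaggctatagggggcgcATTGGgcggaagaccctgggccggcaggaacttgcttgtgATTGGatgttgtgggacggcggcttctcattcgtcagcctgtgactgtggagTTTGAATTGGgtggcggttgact
CKAP2L: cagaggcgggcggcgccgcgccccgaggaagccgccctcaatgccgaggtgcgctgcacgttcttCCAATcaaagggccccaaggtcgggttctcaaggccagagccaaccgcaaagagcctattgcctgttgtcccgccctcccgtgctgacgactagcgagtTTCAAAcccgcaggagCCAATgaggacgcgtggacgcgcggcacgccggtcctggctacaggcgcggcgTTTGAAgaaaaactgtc
CEP55: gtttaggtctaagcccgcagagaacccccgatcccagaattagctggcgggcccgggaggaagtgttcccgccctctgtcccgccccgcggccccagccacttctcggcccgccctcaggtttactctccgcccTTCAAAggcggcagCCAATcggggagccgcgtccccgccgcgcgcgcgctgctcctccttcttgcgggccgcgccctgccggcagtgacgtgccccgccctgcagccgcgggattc
ANLN: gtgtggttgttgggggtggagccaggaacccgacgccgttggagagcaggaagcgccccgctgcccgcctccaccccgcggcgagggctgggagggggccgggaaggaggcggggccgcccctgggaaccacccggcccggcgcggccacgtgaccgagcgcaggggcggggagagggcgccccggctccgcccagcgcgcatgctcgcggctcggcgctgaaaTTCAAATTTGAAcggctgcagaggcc
CDC25A: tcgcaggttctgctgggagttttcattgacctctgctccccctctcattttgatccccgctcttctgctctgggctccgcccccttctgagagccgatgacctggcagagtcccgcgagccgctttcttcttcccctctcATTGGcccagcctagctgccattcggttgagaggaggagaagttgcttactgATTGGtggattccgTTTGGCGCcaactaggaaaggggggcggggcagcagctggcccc
E2F2: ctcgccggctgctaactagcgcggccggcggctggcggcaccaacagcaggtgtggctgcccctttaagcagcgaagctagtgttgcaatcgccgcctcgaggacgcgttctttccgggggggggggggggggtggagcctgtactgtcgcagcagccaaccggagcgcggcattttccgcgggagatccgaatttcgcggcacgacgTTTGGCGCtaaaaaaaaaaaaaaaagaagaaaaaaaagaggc
The CHR match of CDCA8 lies 23 bases before the start, those of ANLN lie 26 and 20 bases before it, those of CKAP2L 86 and 17, and that of CEP55 116. The E2F spelling lies 44 bases before the start in CDC25A and 42 in E2F2. A match is a description of letters in the window and says nothing of binding.

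The chromosomal passenger complex, which corrects the attachment of chromosomes to the spindle, had 2 called members. AURKB, its kinase, read 8.89, 8.23, 8.67 and 8.76 on the CYT1 arrays and 9.51, 9.73, 9.41 and 9.58 on the CYT2 arrays (normalised log2 signal, here and below in the order BioRep 1 with Techrep 1 and 2, then BioRep 2). Its lowest CYT2 array lay above its highest CYT1 array, and AURKB rose by 0.92 ± 0.10 (SE, n = 2 biological replicates a group, limma adjusted p = 0.0387), or 1.9-fold. CDCA8, the borealin subunit, read 8.24, 8.24, 8.22 and 8.18 in CYT1 and 8.98, 8.99, 8.72 and 9.13 in CYT2. The CYT1 arrays were nearly equal and all CYT2 arrays stood above them, a rise of 0.73 ± 0.09 (limma adjusted p = 0.0449).

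Enzymes and structural proteins of division followed the same direction. UBE2C, the ubiquitin-conjugating enzyme of the anaphase-promoting complex, read 11.21, 11.16, 11.16 and 10.93 in CYT1 and 11.96, 11.97, 11.81 and 11.83 in CYT2, a rise of 0.78 ± 0.10 (limma adjusted p = 0.0454). It is among the brighter genes called, and its groups were well apart. AURKA, the spindle pole kinase, read 10.35, 10.30, 10.40 and 10.12 in CYT1 and 10.94, 10.89, 11.03 and 10.86 in CYT2, a rise of 0.64 ± 0.08 (limma adjusted p = 0.0454). ANLN, or anillin, which organises the cleavage furrow, rose by 0.68 ± 0.08 from 9.65 to 10.10 in CYT1 to 10.42 to 10.65 in CYT2. CKAP2L, a protein of spindle microtubules, rose by 0.72 ± 0.09, and PIMREG, a regulator of the metaphase-to-anaphase step, by 0.74 ± 0.08. All CYT2 arrays of these genes lay above their CYT1 arrays.

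Further called genes that act in division were not on the list and are named by the size of their change. STMN1, stathmin, which destabilises microtubules, read 9.29, 9.10, 9.15 and 9.02 in CYT1 and 9.94, 9.98, 9.97 and 9.90 in CYT2, a rise of 0.81 ± 0.08 (limma adjusted p = 0.0387). Dimmer probes of STMN1 differed by 0.40 and by 0.22, the latter with arrays that overlapped, and were not called. FAM83D, which recruits casein kinase 1 to the spindle, rose by 0.85 ± 0.10 from arrays between 8.57 and 8.76 to arrays between 9.34 and 9.68. CEP55, needed for the final cut between daughter cells, rose by 0.70 ± 0.08. The CYT1 arrays of CEP55 lay between 9.25 and 9.40 and its CYT2 arrays between 9.95 and 10.05, so the groups were clearly apart. CEP55, EXO1 and LMNB1 fall outside the rule for named genes and were chosen after their values were seen.

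MAD1L1, of the spindle checkpoint, is less certain than these. Its brighter probe read 6.88, 6.87, 6.78 and 6.85 in CYT1 and 7.92, 7.63, 7.96 and 7.74 in CYT2, a rise of 0.96 ± 0.08 (limma adjusted p = 0.0305), and stood higher still in VEC, between 8.47 and 8.86. Its other probe differed by -0.04 and was not called. The probes of MAD1L1 therefore disagree.

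Cell cycle regulators upstream of division were among the largest rises. E2F2, a transcription factor that activates S phase genes, read 8.17, 8.42, 8.43 and 8.54 in CYT1 and 9.33, 9.19, 9.33 and 9.32 in CYT2, a rise of 0.90 ± 0.11 (limma adjusted p = 0.0449). Its VEC arrays, between 8.19 and 8.51, lay in the range of CYT1, from which CYT2 alone stood apart. CDC25A, the phosphatase that activates cyclin-dependent kinases, read 7.80, 7.64, 7.79 and 7.64 in CYT1 and 8.36, 8.51, 8.60 and 8.57 in CYT2. It rose by 0.79 ± 0.09 (limma adjusted p = 0.04), and its VEC arrays, between 8.36 and 8.47, lay in the range of CYT2. A dimmer probe of CDC25A differed by 0.17 and was not called. MXD3, a MAX-binding repressor of the MYC network, rose by 0.82 ± 0.10 from 5.56 to 6.23 in CYT1 to 6.55 to 6.78 in CYT2, and was detected on all arrays of both groups and on 0 of 4 VEC arrays.

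**Figure D3:**
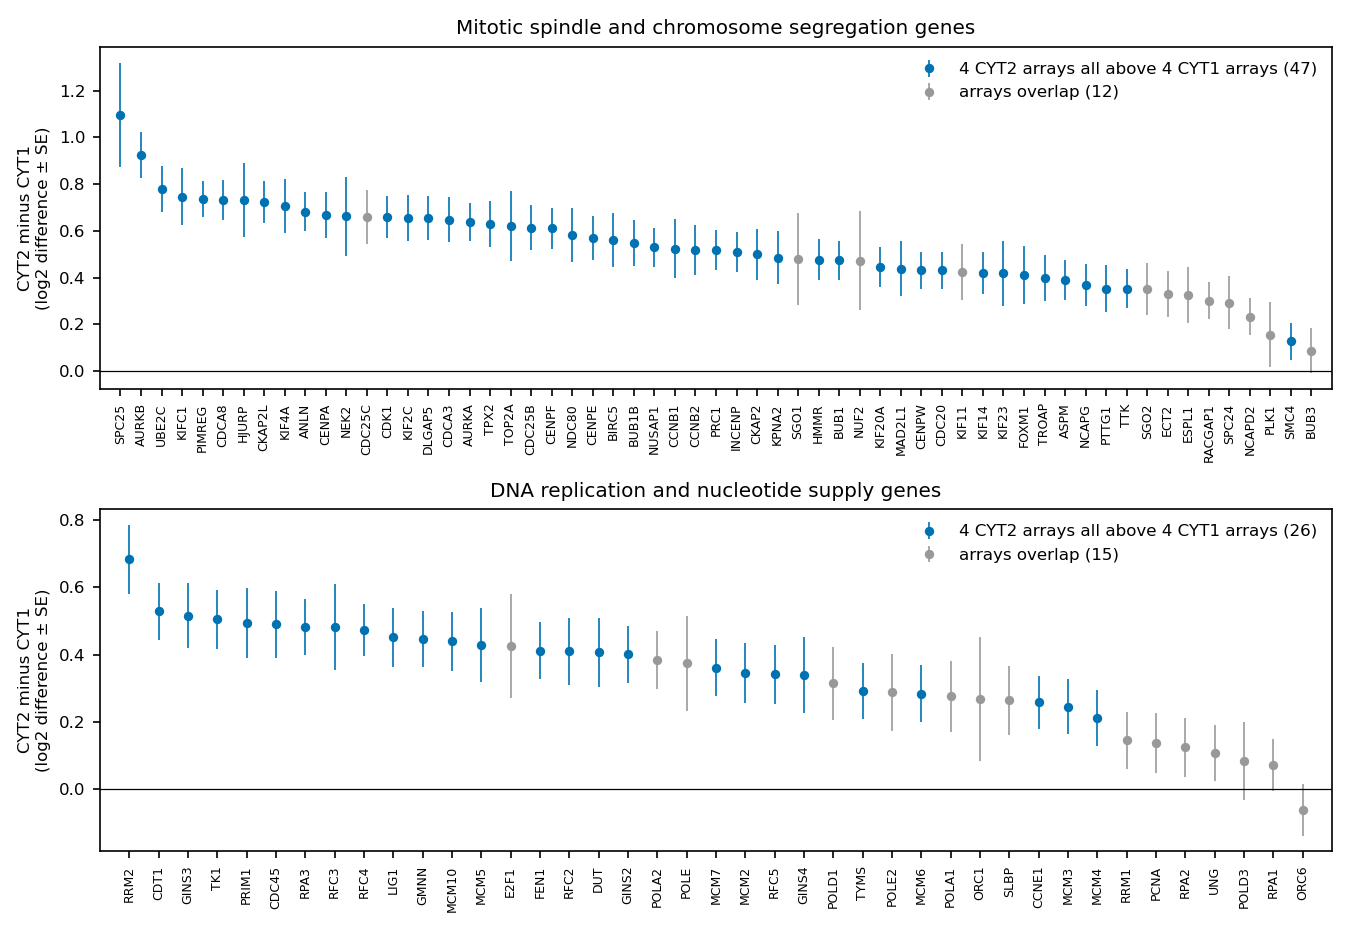
Difference between CYT2 and CYT1 (vertical axes, log2, with the model's SE) for each of 59 mitosis genes and 41 replication genes, ordered by size, with genes in blue where all 4 CYT2 arrays lie above all 4 CYT1 arrays. All mitosis genes lie above 0, and 40 of the 41 replication genes do, with ORC6 as the exception.

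Genes of DNA replication and nucleotide supply shifted in the same direction by less. Their median difference was 0.36 over 41 genes tested, with 40 above 0 and 26 in which all CYT2 arrays lay above all CYT1 arrays (beside 6.76% of all genes). None was called by limma at its adjusted threshold. RRM2, the small subunit of ribonucleotide reductase, read 8.73, 8.55, 8.93 and 8.66 in CYT1 and 9.35, 9.59, 9.30 and 9.37 in CYT2, a difference of 0.68 ± 0.10 (limma adjusted p = 0.0597). CDT1, which loads the replicative helicase, differed by 0.53 ± 0.08 (limma adjusted p = 0.0628). The members with a difference above 0 ran down to 0.07 for RPA1, and ORC6 stood at -0.06. Against VEC the list had a median of -0.22 in CYT1 and of 0.17 in CYT2. EXO1, a DNA repair exonuclease outside the list, rose by 0.68 ± 0.09, and its other probe by 0.71.

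Among 22 genes of G1 cyclins, their kinases and inhibitors, E2F2 rose and the others were not called, and the median difference was 0.09. In 8 of the 22 all CYT2 arrays lay above all CYT1 arrays (beside 6.76% of all genes), and in 0 they lay below. CDKN2D, an inhibitor of CDK4 and CDK6, differed by 0.60 ± 0.10 (limma adjusted p = 0.0628). MYC (-0.06), CCND1 (-0.14) and CDKN1A (-0.03), named after their values were seen, showed little difference. The list of histone genes of the replication-dependent clusters had a median of -0.01 over 12 genes, with H4C3 at 0.43 ± 0.09 (limma adjusted p = 0.0949). H2AX, which is on the list but lies outside the clusters, was at 0.56 ± 0.11 (limma adjusted p = 0.081). LMNB1, of the nuclear lamina, rose by 0.70 ± 0.09, and its VEC arrays lay with CYT1.

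KRT13 had the largest fall among the genes called, and KRT14 fell as well. KRT13, a keratin of the upper layers of stratified mucosa, read 7.89, 7.69, 7.67 and 7.75 in CYT1 and 4.84, 5.46, 4.99 and 5.47 in CYT2. It was detected on 4 of 4 CYT1 arrays, 0 of 4 CYT2 arrays and 1 of 4 VEC arrays, so that CYT1 stood apart from both other groups. KRT13 therefore passed the detection filter through CYT1 alone. KRT13 was at least 4.84-fold lower in CYT2 than in CYT1, a bound that sets CYT1 against the lowest detected signal of each CYT2 array (fitted difference -2.56 ± 0.11, limma adjusted p = 0.00549). KRT14, the keratin of basal cells, read 10.83, 10.86, 10.95 and 10.89 in CYT1 and 9.92, 9.65, 9.97 and 9.64 in CYT2. It fell by 1.09 ± 0.09 on the log2 scale (limma adjusted p = 0.0305) to levels still above VEC, which lay between 9.18 and 9.37.

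These were the falls among 13 keratins tested, in which 0 rose by limma, beside 0.309% of all genes called lower. The partner of KRT14, KRT5, differed by -0.13, and KRT8, of simple epithelium, by 0.65 ± 0.12 (limma adjusted p = 0.0776). The median over the keratins was 0.08, and it was -0.10 without CYT1 replicate 2. Of 18 basal and myoepithelial markers KRT14 fell and 0 rose by limma, with ACTA2, smooth muscle actin, at -0.56 ± 0.08 (limma adjusted p = 0.056). Of 15 luminal markers 0 were called by limma, and their median was 0.22, with FOXA1 at 0.53 ± 0.10 (limma adjusted p = 0.0797).

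Genes of the cornified envelope split. SPRR3, a small proline-rich envelope precursor of mucosa, read 7.76, 7.75, 7.77 and 7.42 in CYT1 and 6.19, 5.92, 6.81 and 6.09 in CYT2, and fell by 1.42 ± 0.15 (limma adjusted p = 0.0387). Its VEC arrays, between 7.46 and 7.54, lay with CYT1. SPRR2A, a related precursor, read 9.88, 9.81, 9.89 and 9.63 in CYT1 and 10.44, 10.56, 10.54 and 10.80 in CYT2, a rise of 0.78 ± 0.10 (limma adjusted p = 0.0484), with VEC far above both at 12.47 to 12.70. SBSN, or suprabasin, secreted by upper epidermal layers, fell by 0.92 ± 0.09 from arrays between 8.26 and 8.46 to arrays between 7.36 and 7.57. In all 1 of 17 such genes rose and 2 fell, with a median of -0.05. Probes of the SPRR2 genes may not tell near-identical members apart.

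Proteases and their inhibitors that act in epithelium changed in both directions. SERPINB13, an inhibitor of lysosomal cathepsins, read 7.54, 7.47, 7.38 and 7.48 in CYT1 and 6.08, 5.44, 5.70 and 5.87 in CYT2, and fell by 1.70 ± 0.12 (limma adjusted p = 0.0305), or 3.24-fold. The CYT1 arrays were tight and lay above all VEC arrays, which ran from 5.50 to 6.38. A2ML1, an alpha-2-macroglobulin-like inhibitor of the epidermis, was detected on all CYT1 arrays and on 0 of 4 CYT2 arrays, and was at least 1.36-fold lower in CYT2. KLK5, an epidermal kallikrein, read 11.65, 11.65, 11.48 and 11.49 in CYT1 and 10.62, 10.46, 10.70 and 10.70 in CYT2, and fell by 0.95 ± 0.10 (limma adjusted p = 0.0387). Its other 2 probes differed by -0.96 and -0.87.

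MMP9, a gelatinase, read 10.51, 10.44, 10.57 and 10.29 in CYT1 and 9.61, 9.64, 9.80 and 9.60 in CYT2, and fell by 0.79 ± 0.08 (limma adjusted p = 0.0387). ADAM8, a membrane-bound metalloprotease, went the other way, from 6.54, 6.59, 6.64 and 6.90 in CYT1 to 7.63, 7.38, 7.52 and 7.50 in CYT2, a rise of 0.84 ± 0.10 (limma adjusted p = 0.0449). Both genes had groups that did not overlap. Over the lists, 1 of 32 proteases rose and 2 fell, with a median of -0.04, and 0 of 27 protease inhibitors rose by limma and 2 fell, with a median of 0.004.

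**Figure D4:**
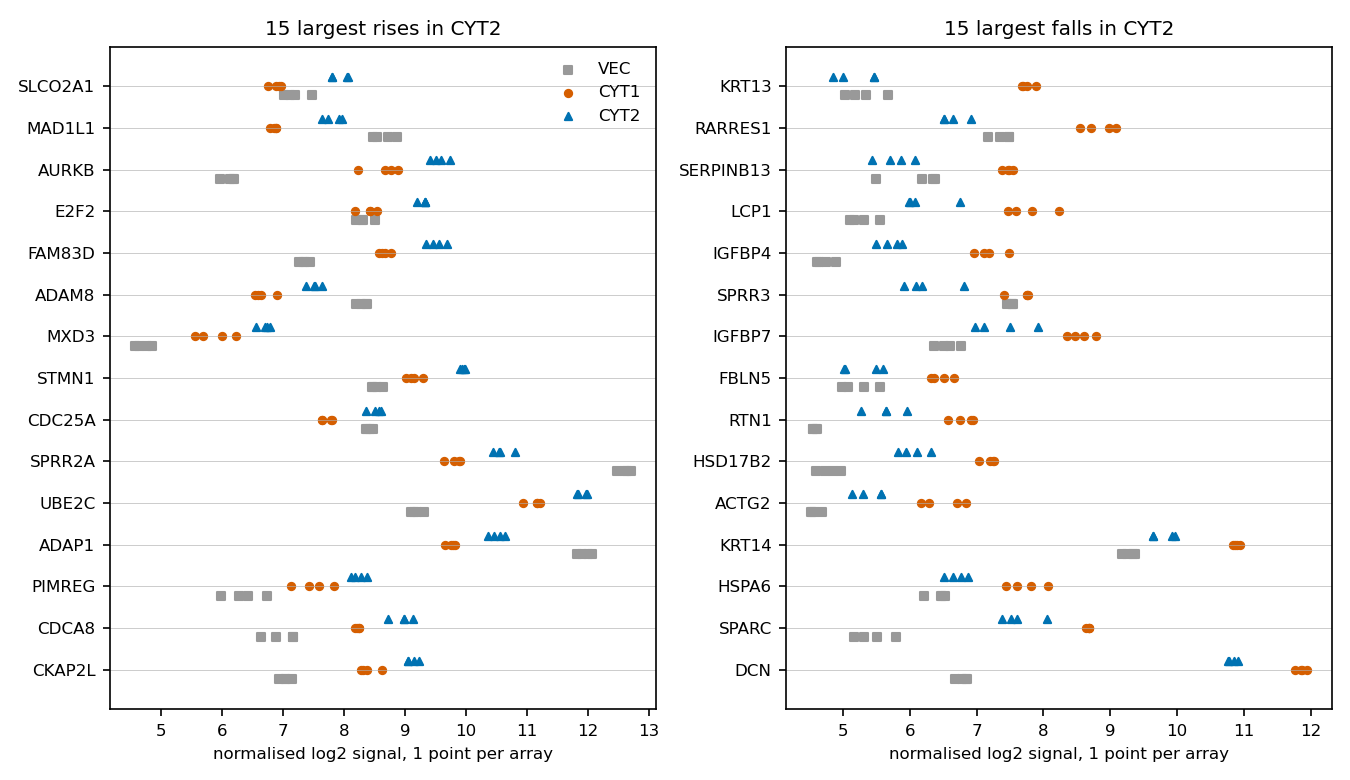
Normalised log2 signal (horizontal axes) of each array for the 15 genes with the largest rises and the 15 with the largest falls in CYT2 against CYT1, with CYT2 arrays as blue triangles, CYT1 arrays as orange circles and VEC arrays as grey squares. In every gene the CYT2 arrays lie on one side of the CYT1 arrays, and for SLCO2A1 and RARRES1 the VEC arrays lie between them.

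DCN, SPARC, LOX and FBLN5, genes of the extracellular matrix and of its cross-linking, fell in CYT2. DCN, the proteoglycan decorin, read 11.86, 11.87, 11.76 and 11.95 in CYT1 and 10.86, 10.79, 10.92 and 10.77 in CYT2, and fell by 1.03 ± 0.08 (limma adjusted p = 0.0305), or 2.04-fold. Both groups lay far above VEC, which ran from 6.68 to 6.86. SPARC, a matrix glycoprotein that binds collagen, read 8.64, 8.68, 8.69 and 8.68 in CYT1 and 8.06, 7.38, 7.52 and 7.60 in CYT2, and fell by 1.03 ± 0.09 (limma adjusted p = 0.0327). LOX, which cross-links collagen and elastin, read 10.28, 9.96, 10.29 and 10.25 in CYT1 and 9.38, 9.05, 9.22 and 9.06 in CYT2, and fell by 1.02 ± 0.11 (limma adjusted p = 0.0387). FBLN5, an elastic fibre protein, fell by 1.18 ± 0.11 to the level of VEC. It was detected on 4 of 4 CYT1, 2 of 4 CYT2 and 1 of 4 VEC arrays. FBLN5 therefore passed the detection filter only through CYT1, where it is high.

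The matrix list as a whole showed a small difference. Of 35 collagens, laminins and matrix glycoproteins 2 fell, SPARC and LOX (beside 0.309% of all genes), and 0 rose by limma, with a median of -0.10. All CYT2 arrays lay below all CYT1 arrays in 7 (beside 6.39% of all genes) and above in 1 (beside 6.76%). The median was -0.01 with technical arrays 1 alone and -0.21 with technical arrays 2 alone. POSTN, periostin, differed by -0.76 and was not called, while a dimmer probe of it was (-0.95, named after its value was seen). FBLN1, fibulin-1, another matrix gene above VEC in CYT1, stood at -0.03, FN1, fibronectin, at -0.71, COL1A1 at -0.50 and COL1A2 at 0.04.

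Of 9 fibroblast markers tested 1 fell, DCN, and 0 rose by limma, with a median of -0.50. One of the 9, POSTN, was detected on 4 CYT1, 1 CYT2 and 0 VEC arrays. It passed the detection filter only through CYT1, where it is high, and bears on the median. FBLN1 (-0.03), COL5A1 (-0.03) and COL1A2 (0.04) lay near 0, and FAP, the fibroblast activation protein, was at -0.56 ± 0.09 (limma adjusted p = 0.068). The summed normalised signal of the 16 markers on the array ran from 12116 to 13513 on CYT1 arrays and from 9895 to 10950.5 on CYT2 arrays. COL3A1, LUM, PDGFRB, THY1, TCF21 and DPT, 6 of the 16, were not detected on any of these 8 arrays. The part of fibroblast markers in the matrix result was not tested. With the deposited log2 values the median of the fibroblast list was -0.24.

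Genes of contractile smooth muscle actin were lower in CYT2. The median difference over 24 genes was -0.23, with 2 that fell and 0 that rose by limma, and 12 with all CYT2 arrays below all CYT1 arrays (beside 6.39% of all genes) against 1 above. TAGLN, transgelin, which binds actin filaments, read 12.99, 12.78, 12.83 and 12.79 in CYT1 and 11.98, 12.07, 11.78 and 11.92 in CYT2, and fell by 0.91 ± 0.11 (limma adjusted p = 0.0449), and its other probe was called lower as well. ACTG2, the gamma-actin of smooth muscle, read 6.84, 6.28, 6.70 and 6.17 in CYT1 and 5.56, 5.30, 5.56 and 5.13 in CYT2, and fell by 1.11 ± 0.09 (limma adjusted p = 0.0305). All 4 CYT1 arrays detected ACTG2, 2 of 4 CYT2 arrays did and 0 of 4 VEC arrays did. ACTG2 therefore passed the detection filter only through CYT1, where it is high, and it counts among the falls of the list.

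ACTG2 is known as a target of SRF, which binds the CArG box. Its window of 250 bases before the start, at chr2:73892758-73893007 on the plus strand of GRCh38.p14, is shown because it is the member with the largest fall in the list.
ACTG2: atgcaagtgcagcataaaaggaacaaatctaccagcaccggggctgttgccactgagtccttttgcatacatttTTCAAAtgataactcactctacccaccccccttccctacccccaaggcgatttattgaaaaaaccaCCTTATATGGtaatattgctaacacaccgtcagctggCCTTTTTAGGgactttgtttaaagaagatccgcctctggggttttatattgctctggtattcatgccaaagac
Capitals mark CArG box matches 110 and 73 bases before the start, and a TTCAAA match of the CHR letters 176 bases before it. A CArG box was found in the windows of 6 of 22 genes of the list (27.3%), ACTG2, CNN2, FHL2, MYLK, SRF and TPM4, beside 1.18% of all windows, and in 1 of the 21 windows of genes called lower.

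Mesenchymal markers and YAP/TEAD targets, which share genes with the lists above, leaned the same way. Of 15 mesenchymal markers and EMT factors 0 were called by limma, with a median of -0.18, or -0.07 with technical arrays 2 alone. In 6 all CYT2 arrays lay below all CYT1 arrays (beside 6.39% of all genes). WNT5A, a non-canonical Wnt ligand, read 9.13, 9.04, 8.84 and 9.03 in CYT1 and 8.33, 8.22, 8.58 and 8.19 in CYT2 (-0.68 ± 0.09, limma adjusted p = 0.0529). Of 29 YAP/TEAD targets VGLL3, a TEAD cofactor, fell by 0.81 ± 0.10 and 0 rose by limma, with a median of -0.16, or -0.05 with technical arrays 1 alone. ANKRD1, another such target, stood at -0.82 ± 0.11 (limma adjusted p = 0.0532).

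Epithelial adhesion genes leaned toward CYT2. EPCAM, an epithelial adhesion protein, read 10.32, 10.15, 10.23 and 10.26 in CYT1 and between 10.88 and 11.02 on the 4 arrays of CYT2, a rise of 0.71 ± 0.08 (limma adjusted p = 0.0387). Its CYT2 arrays lay in the range of VEC, from 10.90 to 11.15, or just below it. OVOL2, a transcription factor that keeps cells epithelial, read 7.47, 7.44, 7.60 and 7.39 in CYT1 and 8.09, 8.14, 8.37 and 7.99 in CYT2, a rise of 0.68 ± 0.08 (limma adjusted p = 0.0449), and was higher in VEC than in both. Of 28 genes of epithelial junctions and polarity these 2 rose and 0 fell by limma, with a median of 0.11. CDH1, E-cadherin, was at 0.22 and not called.

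IGFBP4 and IGFBP7 fell in CYT2, both of the family of insulin-like growth factor (IGF) binding proteins, which hold the ligand outside the cell. IGFBP4 read 7.18, 7.49, 7.10 and 6.95 in CYT1 and 5.49, 5.65, 5.81 and 5.88 in CYT2, and fell by 1.47 ± 0.14 (limma adjusted p = 0.0387), or 2.77-fold. It was detected on 3 of 4 CYT2 arrays and on 0 of 4 VEC arrays, where CYT1 was at least 3.21-fold and CYT2 at least 1.16-fold higher. IGFBP7, which binds IGF weakly and is secreted into the matrix, read 8.48, 8.61, 8.78 and 8.35 in CYT1 and 7.49, 7.11, 7.92 and 6.97 in CYT2, and fell by 1.18 ± 0.09 (limma adjusted p = 0.0305). The CYT2 arrays of IGFBP7 were spread, with both Techrep 1 arrays above both Techrep 2 arrays, and all lay below the CYT1 arrays.

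Of 13 genes of the IGF axis 2 fell (beside 0.309% of all genes) and 0 rose by limma, with a median of -0.21. In 7 all CYT2 arrays lay below all CYT1 arrays (beside 6.39% of all genes). STC2, a secreted inhibitor of the protease that cleaves IGFBP4, stood at -0.49 ± 0.09 (limma adjusted p = 0.0778). IGFBP2, at -1.11, had arrays that did not overlap but was not called.

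Among genes of the pathway that docks on CYT1, INPP5D and RPTOR had the smallest p-values and neither was called. INPP5D, the lipid phosphatase SHIP1, which acts on the PI3K product, read 8.25, 8.22, 8.16 and 8.26 in CYT1 and 7.68, 7.86, 7.56 and 7.72 in CYT2, a difference of -0.52 ± 0.09 (limma adjusted p = 0.0748). RPTOR, the scaffold of mTOR complex 1, was at -0.69 ± 0.20 (limma adjusted p = 0.169), with arrays that overlapped. Other genes of the pathway stood above 0, such as GSK3B (0.34) and MTOR (0.21), whose CYT2 arrays all lay above their CYT1 arrays and which were named after their values were seen. Transcript levels do not measure the activity of the pathway.

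FoxO target genes, which AKT is known to hold down, had a median of -0.14 over 29 genes, with 1 that fell and 0 that rose by limma. CITED2, a cofactor of CBP/p300 and a FoxO target, read 10.00, 10.02, 10.18 and 10.20 in CYT1 and 9.15, 9.28, 9.45 and 9.18 in CYT2, and fell by 0.83 ± 0.11 (limma adjusted p = 0.0466). FBXO32, a ubiquitin ligase subunit, read 11.76, 11.93, 11.98 and 11.78 in CYT1 and 11.30, 11.20, 11.34 and 11.21 in CYT2, at -0.60 ± 0.08 (limma adjusted p = 0.0515). For both genes all CYT2 arrays lay below all CYT1 arrays, as they did in 7 of the 29 targets (beside 6.39% of all genes). In 2 targets, SOD2 and TRIB3, they lay above (beside 6.76% of all genes). The list's median ran from -0.18 to -0.10 over the 21 settings, several of which share the same log2 differences.

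Of 10 ERBB receptors and EGF-like ligands 0 were called by limma. EGFR read 9.11, 9.27, 9.06 and 9.08 in CYT1 and 9.67, 9.59, 9.64 and 9.66 in CYT2, a difference of 0.51 ± 0.08 (limma adjusted p = 0.0666), with groups that did not overlap. A dimmer probe of EGFR differed by 0.27, with arrays that overlapped. ERBB2 was at -0.24 ± 0.09 (limma adjusted p = 0.243). Of 36 ERK feedback inhibitors and immediate early genes 0 were called by limma, with SPRY4, a feedback inhibitor, at 0.53 ± 0.08 (limma adjusted p = 0.0567) and the phosphatase DUSP1 at -0.43 ± 0.08 (limma adjusted p = 0.0839). The dimmer probe of SPRY4 differed by 0.09, with arrays that overlapped. Of 20 STAT5 factors, milk protein and cytokine feedback genes 0 were called by limma, with a median of -0.09 and IL6ST, the shared receptor subunit of the IL-6 family, at -0.49 ± 0.08 (limma adjusted p = 0.061).

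Of 30 hypoxia and glycolysis genes 25 had a difference below 0, with a median of -0.13 and 0 called by limma. All CYT2 arrays lay below all CYT1 arrays in 10 of them (beside 6.39% of all genes) and above in 0. SLC2A3, a glucose transporter, read 7.41, 7.25, 7.23 and 7.31 in CYT1 and 6.42, 6.42, 6.75 and 6.50 in CYT2 (-0.78 ± 0.11, limma adjusted p = 0.0515). ADM, the vasodilator peptide adrenomedullin, was at -0.68 ± 0.10 (limma adjusted p = 0.06). The genes of the core enzymes ENO1 (0.04), ALDOA (-0.03) and PGAM1 (-0.05), named after their values were seen, hardly differed.

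Interferon-stimulated genes did not share a direction. OAS2, which senses double-stranded RNA, read 6.77, 6.47, 6.72 and 6.53 in CYT1 and between 5.58 and 6.34 on the 4 arrays of CYT2, and fell by 0.71 ± 0.08 (limma adjusted p = 0.0449). It was the call made in the fewest settings, 6 of 21. Of 47 such genes 1 fell and 0 rose by limma, with a median of 0.01. All CYT2 arrays lay below all CYT1 arrays in 12 (beside 6.39% of all genes) and above them in 4 (beside 6.76%).

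Cytokines, chemokines and NF-kB target genes had a median of 0.14 over 26 genes, with 1 fall, and the median was 0.08 without CYT1 replicate 1 or without CYT1 replicate 2 and 0.07 with quantile normalisation of uncorrected values. ACKR1, a decoy receptor for chemokines, read 9.69, 10.02, 9.64 and 10.05 in CYT1 and 9.23, 9.06, 9.03 and 9.17 in CYT2, and fell by 0.73 ± 0.08 (limma adjusted p = 0.0387). It was not detected on any VEC array, where CYT1 was at least 20.4-fold and CYT2 at least 12.3-fold higher. IL24, a cytokine of the IL-10 family, read 5.50, 5.67, 5.77 and 5.07 in CYT1 and 6.14, 7.02, 6.50 and 6.95 in CYT2, at 1.15 ± 0.17 (limma adjusted p = 0.0593). It was detected on 2 of 4 CYT1 arrays and on all CYT2 arrays. CD14, a co-receptor for lipopolysaccharide and a leukocyte marker, rose by 0.64 ± 0.08 from arrays between 9.06 and 9.23 to arrays between 9.74 and 9.82.

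Of 5 leukocyte markers tested CD14 was called, and the median was 0.21, with CSF1R at 0.33, CORO1A at 0.21, CD52 at 0.17 and CD68 at -0.39. PTPRC, CD3D, CD3E, TYROBP and FCER1G, 5 of 14 on the array, were not detected on any CYT1 or CYT2 array. The summed normalised signal of the 14 ran from 2853 to 2979 in CYT1 and from 2853 to 2998 in CYT2, and the part of these markers in the result for CD14 was not tested. Of the endothelial markers 7 of 12 were not detected on these 8 arrays, CDH5, VWF and KDR among them, and the sums ran from 480 to 524 and from 521 to 532. The markers of luminal breast cancer lines summed to 6908 to 7431 in CYT1 and 7617 to 8763 in CYT2, with PGR, TFF1, TFF3 and SPDEF, 4 of 15, not detected on any of the 8 arrays. The part of these markers in the results on luminal and epithelial genes was not tested.

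RARRES1 and SLCO2A1 were called on opposite sides of VEC. RARRES1, a retinoid-responsive membrane protein, read 9.08, 8.55, 8.98 and 8.72 in CYT1, 6.51, 6.51, 6.92 and 6.65 in CYT2, and 7.17, 7.34, 7.49 and 7.48 in VEC. The groups lay apart in the order CYT1, VEC, CYT2, and from CYT1 to CYT2 RARRES1 fell by 2.18 ± 0.13 (limma adjusted p = 0.0211), or 4.54-fold. Its dimmer probe fell by 1.68. The other 13 retinoid genes tested were not called, and the list had a median of -0.10.

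SLCO2A1, the prostaglandin transporter, read 6.89, 6.74, 6.94 and 6.96 in CYT1, 8.07, 7.79, 8.05 and 7.80 in CYT2, and 7.19, 7.10, 7.46 and 7.01 in VEC. Here the order was CYT2, VEC, CYT1, with a rise of 1.04 ± 0.09 in CYT2 against CYT1 (limma adjusted p = 0.0305), or 2.06-fold, the largest among the named genes called higher. Of the other prostaglandin genes tested 0 were called by limma, and the receptor PTGER2 stood at -0.62 ± 0.11 (limma adjusted p = 0.0748).

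Several of the largest changes belonged to no list. LCP1, L-plastin, an actin-bundling protein best known from leukocytes, read 7.83, 7.47, 8.23 and 7.59 in CYT1 and 6.76, 5.98, 6.01 and 6.07 in CYT2, and fell by 1.57 ± 0.17 (limma adjusted p = 0.0387), or 2.98-fold. One CYT2 array stood above the other 3 and still below every CYT1 array. RTN1, a reticulon of the endoplasmic reticulum, read 6.58, 6.91, 6.76 and 6.95 in CYT1 and 5.96, 5.27, 5.64 and 5.65 in CYT2, and fell by 1.17 ± 0.08 (limma adjusted p = 0.0305). HSD17B2, which inactivates estradiol by oxidation, read 7.27, 7.20, 7.24 and 7.04 in CYT1 and 6.31, 6.11, 5.94 and 5.82 in CYT2, and fell by 1.14 ± 0.14 (limma adjusted p = 0.0454). RTN1 and HSD17B2 were not detected on any VEC array.

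HSPA6, a heat-inducible member of the HSP70 family, read 7.82, 7.61, 8.08 and 7.43 in CYT1 and 6.64, 6.52, 6.86 and 6.76 in CYT2, and fell by 1.04 ± 0.11 (limma adjusted p = 0.0387), while its dimmer probe differed by -0.46 and was not called. ADAP1, a GTPase-activating protein of ARF6, read 9.79, 9.82, 9.76 and 9.65 in CYT1 and 10.46, 10.64, 10.55 and 10.35 in CYT2, a rise of 0.75 ± 0.09 (limma adjusted p = 0.0449). Both ICD groups of ADAP1 stood below VEC, which lay between 11.82 and 12.06.

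The remaining called genes were chosen after their values were seen. FGFBP1, which frees fibroblast growth factors from the matrix, rose by 0.68 ± 0.08, and RETREG1, a receptor for autophagy of the endoplasmic reticulum, by 0.63 ± 0.08, with its other 2 probes at 0.02 and 0.29 and not called. Falls were those of THNSL2 (-0.94), the coregulator MN1 (-0.91), POLG2, a subunit of the mitochondrial DNA polymerase (-0.73), the phosphodiesterase GDPD1 (-0.72), ARLN (-0.71), TMEM45A (-0.67) and the cullin CUL9 (-0.62). Dimmer probes of GDPD1 (-0.10), MN1 (-0.43) and TMEM45A (-0.44) were not called, and that of GDPD1 had arrays that overlapped. The VEC arrays of MN1 and POLG2 lay with CYT1 rather than with CYT2. In 8 genes only a dimmer probe was called, among them MYL9, a myosin light chain (-0.82, with the brighter probe at -0.61), TSC22D3 (at least 1.67-fold lower and not detected on any CYT2 array, with the brightest probe at -0.56) and CEACAM1 (0.99, with the brightest at 0.34).

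The medians of the keratin, cornified envelope, histone, retinoid, protease, protease inhibitor, interferon, fatty acid, respiratory chain, cytosolic ribosome and proteasome lists changed sign in at least 1 of the 21 settings. Lists of housekeeping and metabolic genes lay near 0. The medians were 0.03 over 53 genes of the respiratory chain and ATP synthase, 0.02 over 64 cytosolic ribosomal proteins, 0.05 over 30 proteasome subunits and 0.08 over 69 mitochondrial ribosomal proteins, with 0 of these genes called by limma. Cholesterol synthesis and uptake had a median of 0.12 over 20 genes and fatty acid and glycerolipid synthesis 0.02 over 21, and in both lists 0 were called by limma. ELOVL6, a fatty acid elongase, was at 0.55 ± 0.08 (limma adjusted p = 0.0564) and TM7SF2, a sterol reductase, at 0.33 ± 0.10 (limma adjusted p = 0.188). SREBF2, of the cholesterol list, went the other way at -0.68 ± 0.10 (limma adjusted p = 0.0564), with arrays that overlapped. GPAM, of the fatty acid list, stood at -0.65 ± 0.11 (limma adjusted p = 0.0662), and its dimmer probe was called lower (-0.62). Lysosomal genes had a median of -0.09 over 43 genes, with TPP1, a lysosomal peptidase, at -0.36 ± 0.09 (limma adjusted p = 0.14). Estrogen response genes had a median of -0.18 over 12 genes, in which IGFBP4 and KRT13 fell, and the median was -0.41 with technical arrays 2 alone.

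**Figure D5:**
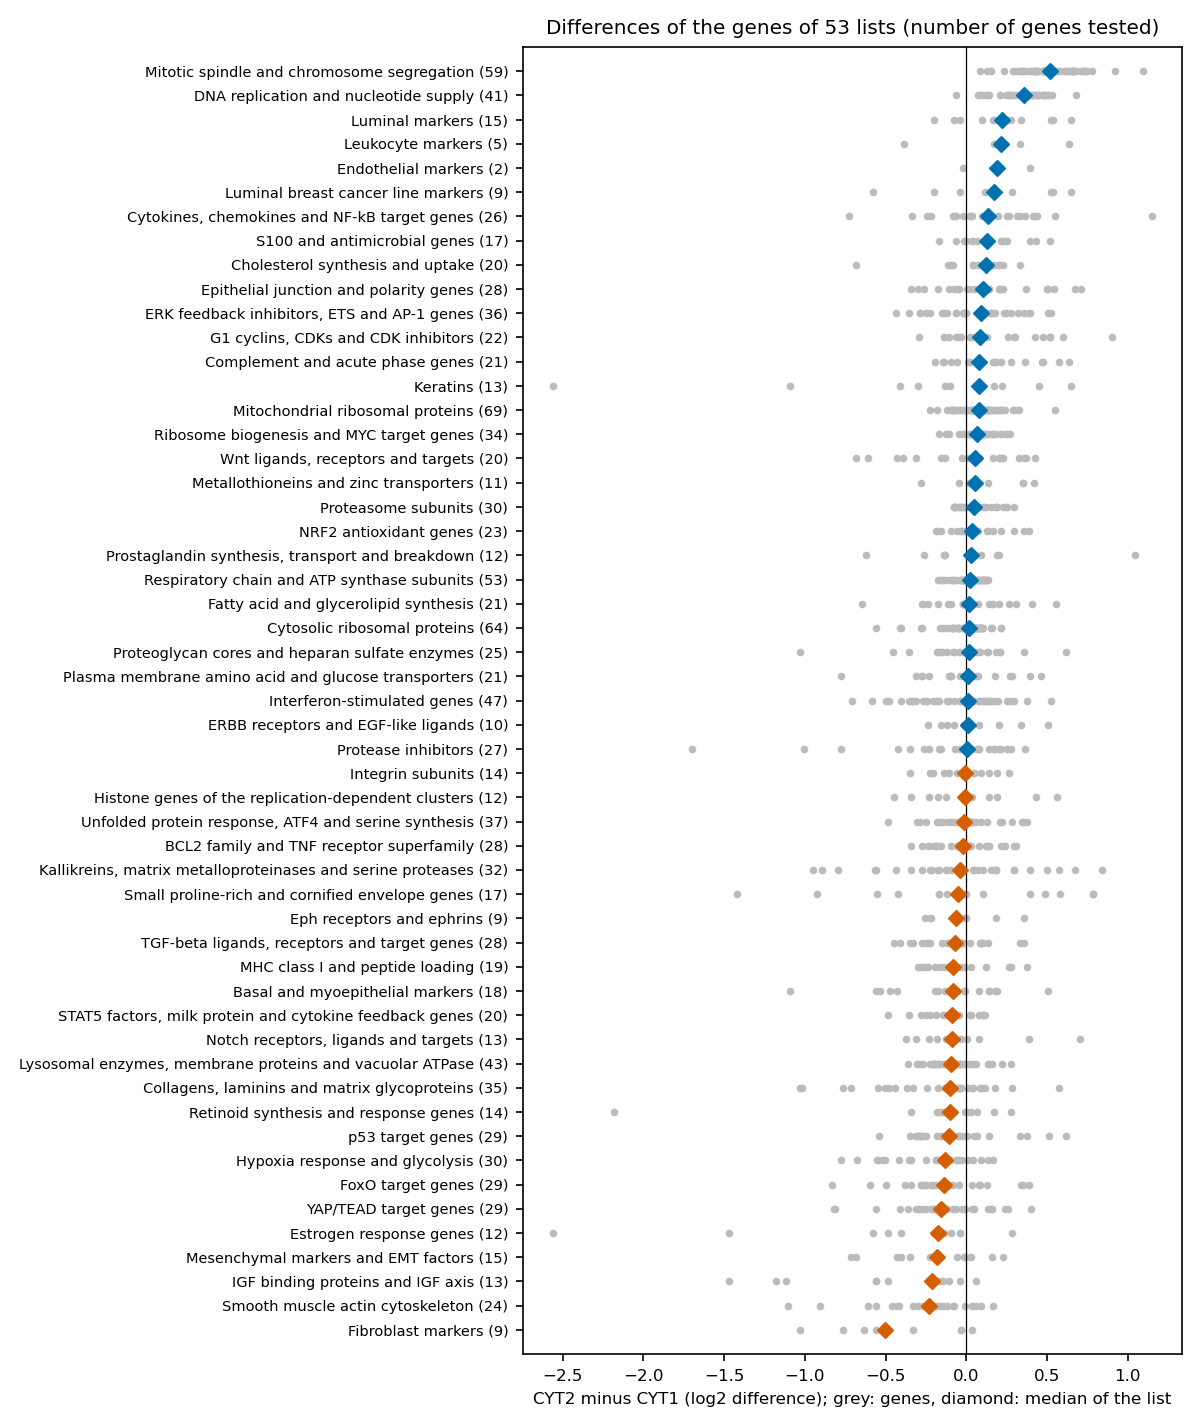
Differences between CYT2 and CYT1 (horizontal axis, log2) of the genes tested in each gene list shown, with genes as grey points and the median of each list as a diamond, blue above 0 and orange below. The mitosis list lies highest, at a median of 0.52, and the fibroblast markers lowest, at -0.50.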

How the data were processed

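Per the labels' protocols, biotin-labelled cRNA was made from total RNA of MCF10A cells and hybridised to Illumina bead arrays, 2 technical arrays for each of 6 biological replicates in 3 groups. The authors deposited a bead intensity per probe and array that was neither background-corrected nor normalised, per the file headers. A detection p-value came with it, per the file headers, in steps of 1 in 770. A deposited table of log2 values equals the log2 of 1 intensity column each and is uncentred. The scanner software is not given in the sources used here.

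Intensities were background-corrected and quantile-normalised with neqc of limma 3.58.1 (R 4.3.3), with an offset of 16 and negative controls derived from the detection p. Each array's detection p was joined to its sample through the identity of its signal with 1 sample-named log2 column. A probe was kept if, in 2 or more of the 6 biological replicates, each technical array detected it (p under 0.05), which left 17356 of 47323. Some probes, such as those of KRT13, A2ML1, ACTG2, FBLN5 and POSTN, passed through CYT1 alone and could hardly stand higher in CYT2. Those of IGFBP4 and RTN1 would not have passed without CYT1. Technical arrays were averaged, and 1 model over the 3 groups was fitted with lmFit and eBayes, with 3 residual and 3.07 prior degrees of freedom and Benjamini-Hochberg adjustment over all probes at 0.05. At-least folds set the brighter group's mean against, per array, the higher of the probe's own signal and the lowest detected signal.

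Probe symbols came from the platform annotation: 30113 probes had 1 symbol, 8 several and 17202 none. Of the symbols, those of 30074 probes were in the RefSeq table. A gene is its probe with the highest mean. The list of PI3K pathway components is not reported here. Members and gene lists were chosen with earlier results of these data known. Named were ERBB4, the called genes with non-overlapping arrays that ranked in the first 15 by size in each direction, up to 4 called genes a list filled to 2 by smallest p, and up to 10 genes on opposite sides of VEC. Other genes are named as exceptions, to give the range of a list or as chosen after their values were seen. In 20 simulations with 200 of 17356 probes changed, the comparison of CYT2 with CYT1 recovered 5.3% of changes of 0.5 on the log2 scale, 73.3% of changes of 1 and 96.2% of changes of 2, and 4.72% of calls were false. The simulated noise was independent and normal, with variances drawn from the model's own prior and no Techrep effect. The share of false calls was thus near the threshold by construction and is not the rate among the calls reported. Alternatives varied the normalisation, filter, error model and replicates. Figures were drawn with matplotlib 3.10.9 in Python 3.11.15.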

Additional observations from a re-analysis of the deposited data

Results flagged for a closer look

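RARRES1 and SLCO2A1 stand out because the 2 ICD forms were called on opposite sides of the vector control. RARRES1 lay 1.46 above VEC in CYT1 (limma adjusted p = 0.00064) and -0.72 from it in CYT2 (limma adjusted p = 0.0094) on the log2 scale, and the tested difference of CYT2 minus CYT1 was -2.18 (limma adjusted p = 0.0211). SLCO2A1 lay -0.31 from VEC in CYT1 (limma adjusted p = 0.04) and 0.74 above it in CYT2 (limma adjusted p = 0.0025), and the tested difference was 1.04 (limma adjusted p = 0.0305). The differences from VEC share the 4 VEC arrays.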

How the results depend on the processing

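The 82 calls (35 higher, 47 lower) became 995 (545 and 450) with quantile normalisation of uncorrected log2 values, 706 (434 and 272) with the deposited log2 values, 482 (265 and 217) with an offset of 50 and 72 (29 and 43) with median scaling. They became 296 (160 and 136) for probes detected on all 4 arrays of CYT1 or CYT2, and 2 (0 and 2) with no detection filter, where 47323 probes were tested and 4785 had an unadjusted p under 0.05. They became 1089 (617 and 472) with a mean-variance trend, 1094 (620 and 474) with all arrays and the biological replicate as a random effect, and 3 (0 and 3) with CYT1 and CYT2 only, KRT13, RARRES1 and SERPINB13. Technical array 1 alone gave 1 (0 and 1) and technical array 2 alone 2 (0 and 2). Leaving out 1 replicate gave 0 to 3 calls, 0 higher and 0 to 3 lower. With the BioRep number as a replicate block 2 remained (0 and 2), KRT13 and RARRES1. These numbers did not pair the samples, since deviations of same-numbered samples correlated at -0.006 to 0.016. Chosen after seeing the data, replicates by Techrep number gave 23 calls (3 and 20), 17 of them among the 82. Of the called genes 13 stayed called, all lower in CYT2. Every gene called higher lost its call, as did SLCO2A1 (limma adjusted p = 0.0563) and AURKB (limma adjusted p = 0.0656). With a Techrep block as well the calls were 0 (0 and 0), with 2408 probes at an unadjusted limma p under 0.05. All arrays with a Techrep block and the biological replicate as a random effect gave 932 (539 and 393). In both fits on all arrays the estimated correlation within a replicate was below 0 (-0.14, and -0.10 with the block), so technical arrays counted as separate samples. All 82 kept their sign in these 21 settings, which was largely fixed in advance because their arrays do not overlap. Of the values of named genes under an alternative 1592 kept their side of the threshold, 535 lost it, 324 gained it and 5 moved, with 0 reversed. Of the list medians 1049 moved by less than the spread between replicates and 85 by more. Few arrays, and signal near background in genes such as KRT13 and A2ML1, limit the precision.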
